A study of Mus musculus with 48 samples.

Results

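Chromatin accessibility was compared between 2 subsets of tumour-infiltrating CD8 T cells from older mice, the transitional cells that the labels name Ttran and the terminally exhausted cells named Tterm. The comparison uses every library of these subsets that carried the control perturbation in aged hosts. There were 2 Ttran and 2 Tterm libraries, so 4 of the 48 libraries of the series. They were identified from the sample titles, whose A is taken here to mean aged hosts and whose Y young ones. All 53868 peaks of the deposited table were tested.

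In both groups the cells came from CD45.1 OT-1 donors, whose CD8 T cells share a single receptor specific for an ovalbumin peptide, and they expressed Cas9. They had been transduced with a lentiviral vector that holds a guide RNA and the fluorescent reporter ametrine. The control perturbation is called OTC in the labels, and that name is kept here. The cells were transferred into aged mice the day before inoculation of B16-OVA, a melanoma line that expresses ovalbumin, and were sorted from the tumours on day 15 after inoculation. Ttran cells were gated as positive for both Slamf6 and Tim-3 (encoded by Havcr2), and Tterm cells as positive for Tim-3 and negative for Slamf6. The same control cells were also sorted as Tprog (Slamf6 alone) and Ttad (neither protein). Cells of several mice were pooled into each replicate, and between 5000 and 50000 cells were sorted per perturbation and subset. Whether a Ttran pool and a Tterm pool held cells of the same mice is not recorded in the labels, and neither is the exact age of the hosts. All sorted cells carried the reporter, so all had been transduced and transferred.

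In chronic infection and in tumours, CD8 T cells that see antigen for a long time lose function by steps. Progenitor cells, which express the transcription factor TCF-1 (gene Tcf7) and the surface protein Slamf6, renew themselves and give rise to transitional cells, which can be effector-like, and then to terminally exhausted cells with high levels of inhibitory receptors. The steps are accompanied by opening and closing of regulatory sites, which ATAC-seq reads as the density of insertions made by the Tn5 transposase. A peak that is higher in a subset is more accessible there. Accessibility is not expression, and in a sorted bulk sample fewer cells with an open site and a less open site in every cell cannot be told apart.

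The Ttran libraries held 9060635 and 8547780 reads in peaks, and the Tterm libraries held 12447296 and 14780826. Values below are the authors' normalized reads per peak, in which 1 read is worth 1.504 and 1.594 in the Ttran libraries and 1.09 and 0.916 in the Tterm libraries. Across peaks, Pearson's r of log2(value + 1) was 0.942 between the Ttran libraries and 0.966 between the Tterm libraries, against 0.942 to 0.946 between the groups. Peaks are not independent replicates, so these are descriptions. The pair of Ttran libraries was thus no closer to each other than to the Tterm libraries over the whole table. Peaks of 8 CD8 T cell identity genes were open in all 4 libraries, with summed values of 36771 to 37995 normalized reads over 89 peaks. No peak was assigned to the B cell genes Ms4a1 and Cd79a, to the myeloid genes Adgre1, Lyz2 and Csf1r, to the melanocyte genes Tyr, Tyrp1 and Dct or to Foxp3. Peaks of the other B cell marker genes summed to 1242 and 1345 normalized reads in Ttran and 1206 and 1203 in Tterm, and those of the other CD4 T cell markers to 5916 and 6005 against 6089 and 6181. The peaks of the other myeloid marker genes summed to 927.8 and 937 in Ttran and 904 and 947 in Tterm, and those of the other melanocyte genes to 1277 and 1294 against 1248 and 1256.

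Slamf6 protein separates the gates of the subsets, while both were gated as Tim-3 positive. Of 6 peaks at Slamf6, 3 were higher in Ttran, beside 1.87% of all peaks. The clearest lay in the gene body at chr1:171920836-171921932 (GRCm38), with 328 and 239 normalized reads in Ttran and 120 and 156 in Tterm. Both Ttran libraries were above both Tterm libraries, and the Tprog libraries were higher still at 494 and 390.4. The log2 fold change was 1.03 (SE 0.18, limma adjusted p = 0.000101), and it was called in all 13 alternative settings of the analysis. None of 5 peaks at Havcr2 was called by limma, edgeR or DESeq2, and 0 had an unadjusted limma p under 0.05. Limma called 3.22% of all peaks, so a lack of calls among 5 says little by itself. The strongest Havcr2 peak, over the transcription start at chr11:46452770-46455391, held 1256 and 1304 normalized reads in Ttran and 1351 and 1212 in Tterm. Its log2 difference was 0.00 (SE 0.08, limma adjusted p = 0.999). Both subsets stood above the Tim-3 negative subsets at this peak, with Tprog at 585 and 523 and Ttad at 825 and 934.

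Over the whole table, 1735 peaks (3.22%) passed limma's adjusted p under 0.05, fitted on log2(value + 1). Of these, 1006 (1.87%) were higher in Ttran and 729 (1.35%) were lower. The median log2 fold change was 0.90 among the higher peaks and −0.65 among the lower ones, while the median of all peaks was −0.00. A change of at least 2-fold was reached by 664 called peaks (1.23%), 437 higher and 227 lower. The libraries of the groups did not overlap at 1723 of the 1735 called peaks, and they did not overlap at 44.9% of all peaks either. An exact permutation test of 2 against 2 libraries cannot go below p = 0.333 for a single peak, so the calls rest on the spread that the fit shares over all 48 libraries, which is a spread between sorted pools of mice. Leaving out a Tterm library lowered the count by over 1.5 times: 499 peaks were called without Tterm replicate 1, of which 435 were among the 1735, and 760 without Tterm replicate 2, of which 593 were. With the compared groups fitted alone 625 peaks were called. The balance turned without either Ttran library, to 546 higher and 727 lower without Ttran replicate 1 and 586 and 649 without Ttran replicate 2. There were 150 peaks called in all 13 alternatives, 124 higher and 26 lower.

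**Figure D1:**
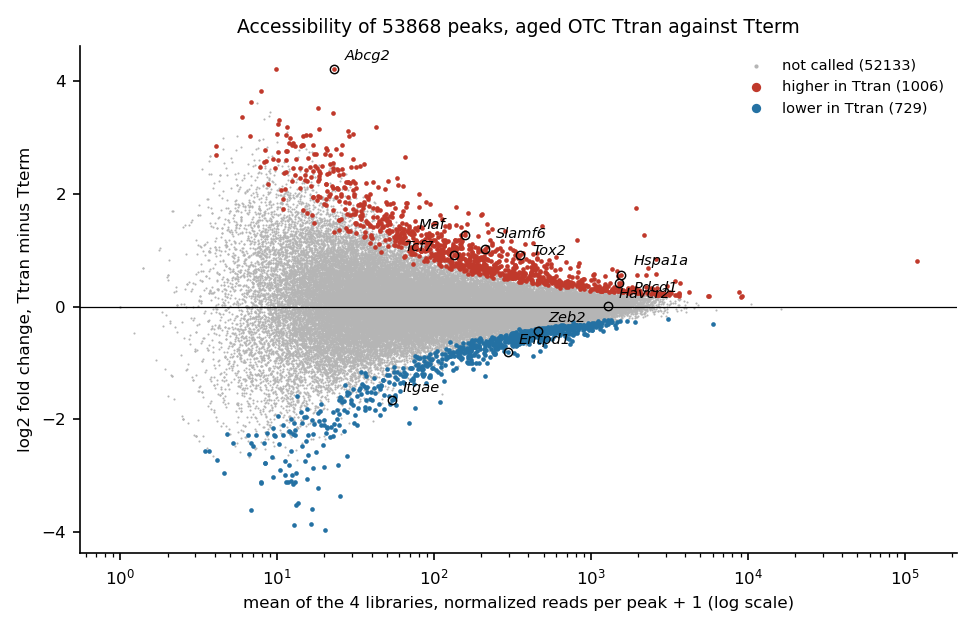
Each point is 1 of the 53868 peaks. The horizontal axis is the mean normalized read number of the 4 libraries plus 1 on a log scale, and the vertical axis is the log2 fold change of Ttran minus Tterm. Red points (1006) were called higher and blue points (729) lower, and circles mark 1 peak at each gene named. Large fold changes occur among weak peaks, and the strongest peak at Havcr2 lies on the zero line.

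The direction of change followed the order of the exhaustion subsets as it was measured in other animals. In young hosts, where the control cells gave separate libraries (2 of Tprog and 3 of Tterm), 14279 peaks (26.5%) differed between Tprog and Tterm. Of the 7512 peaks (13.9%) more open in young Tprog, 675 were higher and 15 were lower in aged Ttran than in aged Tterm, with a median log2 fold change of 0.23 and 77.8% of peaks above 0. Of the 6767 peaks (12.6%) more open in young Tterm, 18 were higher and 305 were lower, with a median of −0.16. The 39589 peaks that did not differ in young hosts gave 313 higher and 409 lower, with a median of −0.01. Over the 13 alternatives and 2 added ones the medians stayed between 0.21 and 0.24 for progenitor-open peaks and between −0.17 and −0.15 for terminal-open peaks. The counts moved more, down to 247 higher progenitor-open and 58 lower terminal-open peaks without Tterm replicate 1. They were 334 and 99 without Tterm replicate 2, 372 and 190 without Ttran replicate 1, and 420 and 216 without Ttran replicate 2. At the peaks described below, aged Ttran often lay between Tprog and Tterm, and some peaks departed from that order.

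Position in the genome divided the calls as well. Autosomal peaks over an annotated transcription start made up 17.9% of all peaks, 9.94% of the higher peaks and 32.5% of the lower peaks. They counted 100 higher and 237 lower among 9662, with a median log2 fold change of −0.06. Peaks with no gene within 100 kb went the other way, with 97 higher and 22 lower among 2468. The share of a library's reads that fell over starts was 39.6% and 39.9% in Ttran and 41.2% and 40.8% in Tterm. The part of that share in the calls was not tested. In young hosts, where 8.38% of all peaks were called between Ttran and Tterm, 343 of the same 9662 peaks were higher and 1166 were lower.

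**Figure D2:**
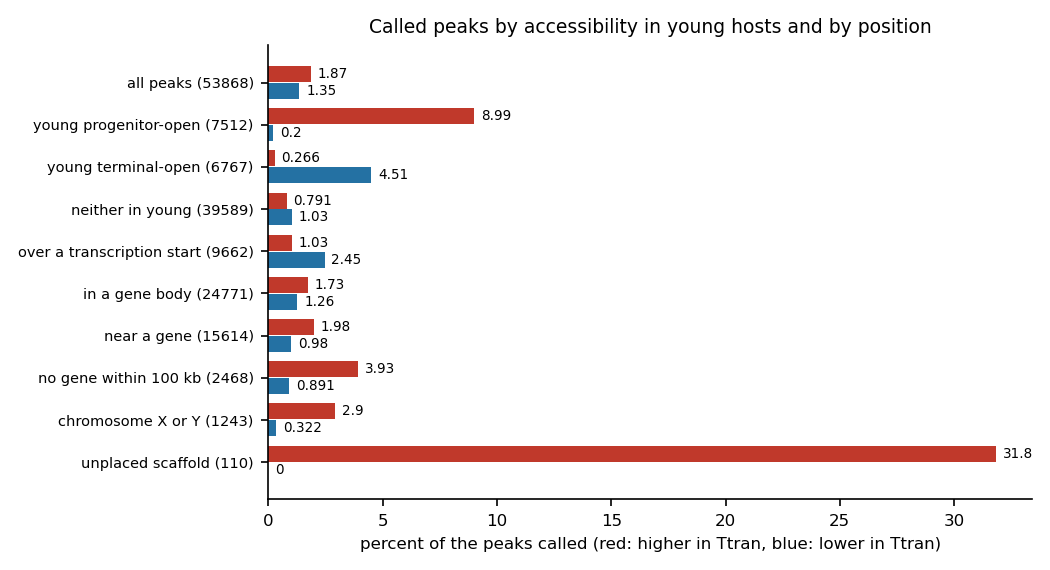
Bars give the percent of peaks called higher (red) or lower (blue) in aged OTC Ttran, and the number of peaks is in parentheses. Peaks more open in young Tprog than in young Tterm were called higher in 8.99% and lower in 0.2%, peaks more open in young Tterm in 0.266% and 4.51%. Unplaced scaffolds stand out with 31.8% higher.

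Among transcription factors of progenitor and memory cells, 9 of 168 peaks at 10 genes rose and none fell, and the median log2 fold change was 0.22. At an unadjusted limma p under 0.05 there were 36 higher and 2 lower peaks, and neither edgeR nor DESeq2 called a lower one (8 and 10 higher). The higher count dropped to 2 without Tterm replicate 1 and to 4 without each of the other libraries, and 1 lower peak was called without Ttran replicate 2. The gene lists were drawn up with earlier results of these data known, so their counts are descriptions. They are to be read against 1.87% of all peaks rising and 1.35% falling. Tcf7, which encodes TCF-1, had 3 called peaks. The peak in its gene body at chr11:52273512-52275959 held 196 and 156 normalized reads in Ttran, 89.3 and 94.4 in Tterm and 628 and 578 in Tprog. Ttran was therefore above Tterm, with no overlap, and far below Tprog. The log2 fold change was 0.92 (SE 0.20, limma adjusted p = 0.00199), and the peak over the Tcf7 start at chr11:52281225-52284085 rose by 0.75. A peak 42490 bp from Id3, an inhibitor of E proteins that marks progenitor cells, held 403 and 479.8 in Ttran against 255 and 329 in Tterm (log2 fold change 0.60). Foxp1, a factor of T cell quiescence, had 3 higher peaks, the clearest in its gene body at chr6:99432083-99433527 with 542 and 494 against 319 and 338 (0.65, SE 0.14, limma adjusted p = 0.00177). A very open peak in Bach2, a repressor that restrains effector genes, rose by only 0.22, from 3345 and 3442 in Tterm to 3956 and 3944 in Ttran. There Ttran also exceeded Tprog, at 2961 and 3038. The call at the Tcf7 gene body was lost without Ttran replicate 1 and with the compared groups alone, that at its start without Tterm replicate 2 or Ttran replicate 2. The Id3 call was lost without Tterm replicate 1 or Ttran replicate 2, that of Foxp1 without Tterm replicate 1, and that of Bach2 without Tterm replicate 1 or with quantile normalization.

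Receptors for homing and survival gave 5 higher peaks (6.94%) and no lower peak among 72, beside 1.87% and 1.35% of all peaks, with a median of 0.17. The counts at an unadjusted limma p under 0.05 were 19 and 1, and edgeR and DESeq2 each called 5 higher and 0 lower. Without replicate 1 of either subset 3 were higher, and without Ttran replicate 1 there was 1 lower. Of these, 4 lay at S1pr1, the sphingosine-1-phosphate receptor that lets T cells leave tissue, which had 15 peaks in all. Its peak at chr3:115728785-115731379, 13730 bp from the gene, held 256 and 225 normalized reads in Ttran, 134 and 123 in Tterm and 387 and 326 in Tprog. The groups did not overlap, the log2 fold change was 0.90 (SE 0.19, limma adjusted p = 0.00127), and all 13 alternatives called it. The other called peak was 15659 bp from Ccr7, the lymph node homing receptor, with 214 and 234 in Ttran against 148 and 93.5 in Tterm and 676 and 605 in Tprog. Its log2 fold change of 0.92 was not called without Tterm replicate 2 or without Ttran replicate 2. No peak of Il7r, Cxcr5, Il6ra, Cd27 or Cd28 passed the test.

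**Figure D3:**
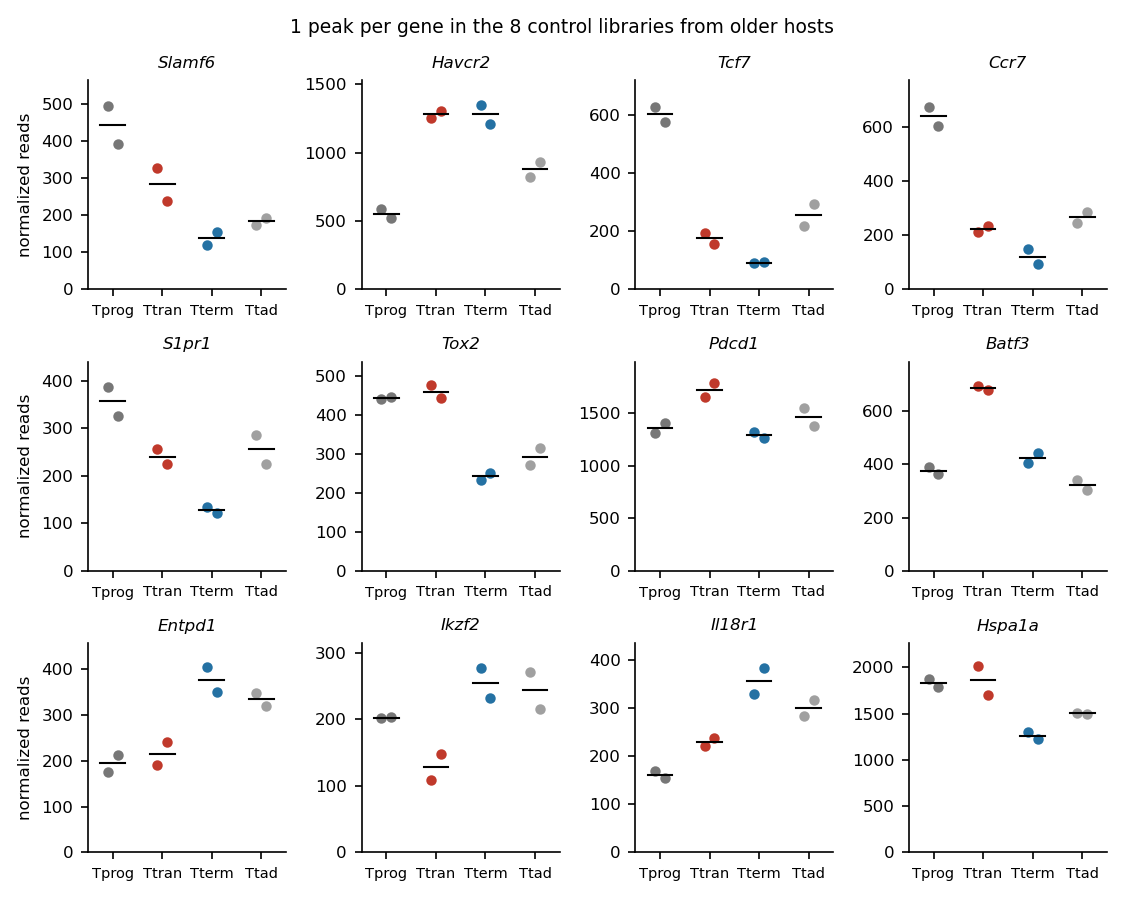
Points are the normalized reads of single libraries at 1 peak per gene, in the 8 OTC libraries from aged hosts, with the mean as a line. Ttran lies between Tprog and Tterm at Slamf6, Tcf7, Ccr7 and S1pr1. It stands above both at Batf3 and Pdcd1, overlaps Tterm at Havcr2 and is below both at Ikzf2.

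Genes of the AP-1 family encode proteins that bind as dimers to sites opened by T cell activation. These genes had 8 higher (11.3%) and no lower peaks among 71, beside 1.87% and 1.35% of all peaks, and a median of 0.13. Before adjustment, 18 higher and 2 lower had a limma p under 0.05, and edgeR and DESeq2 called 8 and 10 higher and 0 lower. The higher count dropped to 2 without Tterm replicate 1 and to 3 without Tterm replicate 2 or Ttran replicate 1, and without Ttran replicate 2 there were 6 higher and 2 lower. Batf3 had 3 of the 8. Its gene-body peak at chr1:191099893-191100864 held 693 and 678 normalized reads in Ttran, 403 and 441 in Tterm and 388 and 363 in Tprog, so Ttran was above both neighbours. The log2 fold change was 0.70 (SE 0.16, limma adjusted p = 0.00376), called in every alternative except the one without Tterm replicate 1. A peak 26198 bp from Fos held 892 and 772 in Ttran and 607 and 600.3 in Tterm (0.46), and its call was lost without Ttran replicate 1. The largest of the group was 19264 bp from Maf, a factor that promotes interleukin-10 and inhibitory receptor genes. It rose from 89.3 and 91.6 in Tterm to 191 and 252 in Ttran, for a log2 difference of 1.27 (SE 0.23, limma adjusted p = 0.000106), in all 13 alternatives. Peaks at Fosb (0.43) and Jun (0.42) passed the test with adjusted p of 0.0438 and 0.049 in limma. Fosb was not called without any one of the 4 libraries, and Jun not without Tterm replicate 1, Tterm replicate 2 or Ttran replicate 1.

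Among the factors of terminal exhaustion 4 peaks rose (1.92%) and 3 fell (1.44%) of 208, near the 1.87% and 1.35% of all peaks, with a median of −0.04. Tox2, a relative of Tox that supports the exhaustion programme, rose at its transcription start, chr2:163202836-163204146. That peak held 475 and 442 normalized reads in Ttran, 233 and 251 in Tterm and 439 and 446 in Tprog. Ttran was thus close to Tprog, and Tterm stood apart below them. The log2 fold change was 0.92 (SE 0.14, limma adjusted p = 2.78e-06), and a further Tox2 peak rose by 0.65. An Nfatc1 peak in the gene body, at chr18:80684294-80685143, rose by 0.68 (SE 0.14, limma adjusted p = 0.00151), with 493 and 556 against 334 and 319. Nfatc1 encodes a calcium-regulated factor that acts downstream of the T cell receptor. Both were called in all 13 alternatives. A peak 182 bp from Nr4a1, an early gene of receptor signalling, rose by 0.84 (limma adjusted p = 0.037) and was not called without any one of the 4 libraries. The falls were at Ikzf2, which encodes Helios, at Rbpj, the nuclear partner of Notch, and at a weak peak near Nr4a3. The Ikzf2 peak, chr1:69752569-69753455, held 108 and 148 normalized reads in Ttran and 278 and 233 in Tterm, with Tprog between at 202 and 203. It fell by 0.999 on the log2 scale (limma adjusted p = 0.000583), a call lost without Tterm replicate 1 or Ttran replicate 1. The Rbpj call was lost without Tterm replicate 1, Tterm replicate 2 or Ttran replicate 2, and that of Nr4a3 without replicate 1 of either subset.

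Inhibitory receptors had 3 higher peaks (4.69%) and no lower peak among 64, beside 1.87% and 1.35% of all peaks, and a median of −0.01. Unadjusted limma p fell under 0.05 at 5 higher and 7 lower peaks. Both edgeR and DESeq2 called 2 higher, and they called 0 and 1 lower. Leaving out any one library gave 2 higher, and without Ttran replicate 1 there was 1 lower. At Pdcd1, which encodes PD-1, a peak 1904 bp from the gene at chr1:94034797-94036401 held 1653 and 1784 normalized reads in Ttran, 1318 and 1264 in Tterm and 1315 and 1406 in Tprog. Ttran was above both other subsets, by a log2 fold change over Tterm of 0.41 (SE 0.07, limma adjusted p = 0.000133) in all 13 alternatives. A peak 456 bp from Ctla4 held 498 and 489 in Ttran and 359.5 and 304 in Tterm (0.58), and Tprog was at 482 and 462. A Btla peak rose by 0.87 from low values, 33.8 and 56.8 in Tterm to 73.7 and 89.3 in Ttran, beside 324 and 280.4 in Tprog. The Ctla4 call was lost without Tterm replicate 2 or Ttran replicate 1, and that of Btla without Tterm replicate 1 or Ttran replicate 2, and with edgeR and DESeq2. No peak of Lag3, Tigit, Cd160, Cd244a, Vsir or Cd200r1 passed the test.

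Genes of terminal surface proteins and adenosine signalling had 1 higher (1.85%) and 2 lower (3.70%) peaks among 54, beside 1.87% and 1.35% of all peaks. All 3 lay at the enzymes that make extracellular adenosine. Entpd1, which encodes CD39 and degrades ATP to AMP, had 2 lower peaks, and Nt5e, which encodes CD73 and turns AMP into adenosine, had 1 higher peak. The Entpd1 peak at chr19:40686623-40687883, in the gene body, held 191 and 241 normalized reads in Ttran, 404 and 349 in Tterm and 177 and 213 in Tprog. Ttran was at the level of Tprog. The peak fell by 0.81 on the log2 scale (SE 0.14, limma adjusted p = 6.06e-05), a call made in all 13 alternatives. The second Entpd1 peak fell by 0.65 (266 and 258 against 416 and 408), a call lost without either Tterm library or without Ttran replicate 2. The Nt5e peak at chr9:88328989-88329909 held 146 and 166 in Ttran, 74.1 and 84.3 in Tterm and 221 and 177 in Tprog, for a log2 difference of 0.97 (SE 0.22, limma adjusted p = 0.00423). The Nt5e call was lost without Tterm replicate 1 or Ttran replicate 2.

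The labels describe Ttran as effector-like. Genes of circulating effector cells had no higher peak among 82 and 3 lower ones (3.66%), beside 1.87% and 1.35% of all peaks, with a median of −0.10. No lower one was called without Tterm replicate 1, with the compared groups alone or with array weights. At an unadjusted limma p under 0.05 there were 4 higher and 11 lower, and edgeR and DESeq2 each called 0 higher and 2 lower. At Il18r1, a subunit of the interleukin-18 receptor, a peak 278 bp from the gene held 223 and 239 normalized reads in Ttran and 329 and 385 in Tterm (log2 fold change −0.62). At the start of Zeb2, a transcriptional repressor that acts with T-bet to promote terminal effector differentiation, the values were 389.6 and 391 against 600.3 and 459 (−0.43). At the start of Cx3cr1, the fractalkine receptor used to mark effector-like transitional cells, they were 253 and 174 against 318 and 313 (−0.59, SE 0.18, limma adjusted p = 0.0412). The groups did not overlap at these 3 peaks, but the calls were fragile: 7, 7 and 5 of the 13 alternatives made them, and edgeR and DESeq2 did not call Cx3cr1. Il18r1 was lost without any one of the 4 libraries, Zeb2 without Tterm replicate 1 or either Ttran library, and Cx3cr1 without either Tterm library or Ttran replicate 2. None of 30 peaks at 8 cytotoxic granule genes was called by limma, edgeR or DESeq2, beside 3.22% of all peaks in limma, and their median was −0.11. Before adjustment, 2 higher and 6 lower had a limma p under 0.05. The strongest, over the start of Nkg7, a granule membrane protein, held 2563 and 2343 normalized reads in Ttran and 2326 and 2382 in Tterm. Itgae, the integrin chain CD103 of resident cells, fell by 1.67 on the log2 scale at a weak gene-body peak (18.1 and 33.5 against 89.3 and 72.4), not called without Tterm replicate 1 or Ttran replicate 1.

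Among other secreted and surface proteins, cytokine and chemokine genes had 3 higher (2.75%) and 1 lower (0.917%) of 109 peaks, with a median of −0.05. Chemokine receptor and residency genes had 1 higher and 1 lower of 67 (1.49% each). Costimulation genes had 2 higher (4.26%) and no lower peaks of 47. Of all peaks, 1.87% were higher and 1.35% lower. The called rises lay 47033 bp from Il2 (0.57), near Xcl1 (0.36), near Tnfsf14 (0.47), 22070 bp from Cxcr4 (0.47), near Cd226 (1.25) and near Tnfrsf18 (0.25). At the Cxcr4 peak, chr1:128614369-128615735, the values were 1009 and 1008 normalized reads in Ttran, 689.7 and 767 in Tterm and 1130 and 1044 in Tprog (SE 0.09, limma adjusted p = 0.000451), and the call was lost without Tterm replicate 1. The Il2 call was lost without replicate 1 of either subset, those of Xcl1 and Cd226 without either Tterm library or Ttran replicate 1, and those of Tnfsf14 and Tnfrsf18 without any one of the 4. The start of Csf1, a myeloid growth factor, fell by 0.34 (759.6 and 842 against 1019.8 and 1007) and was lost without either Tterm library or Ttran replicate 1. Of 16 housekeeping peaks limma, edgeR and DESeq2 called none (0 higher and 3 lower at an unadjusted limma p under 0.05). With 3.22% of all peaks called by limma, a lack of calls among 16 says little. The strongest peak of B2m held 1321 and 1208 against 1356 and 1272. Of 89 peaks at CD8 T cell identity genes 1 was called (1.12%), a weak upstream start of Runx3 (−1.30). Among markers of other cells, a weak peak near Cd14 was lower (3.01 and 3.19 against 11.98 and 18.3) and a peak near the NK receptor gene Klra8 was higher (0.54), but Cd14 was lost without any one of the 4 libraries and Klra8 without either Tterm library or Ttran replicate 1, and edgeR and DESeq2 did not call Cd14. The Runx3 call was lost without any one of the 4 as well.

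**Figure D4:**
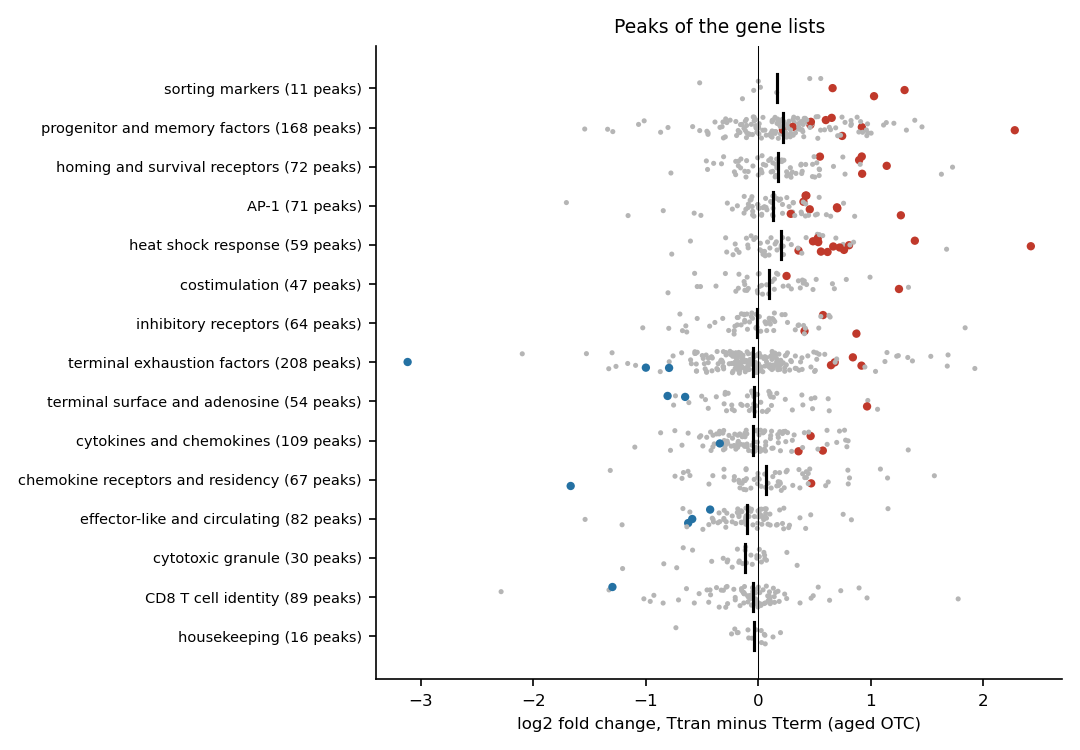
Each point is a peak assigned to a gene of the list named at the left, placed by its log2 fold change of Ttran minus Tterm. Red and blue points were called higher and lower, and black bars are medians. The medians of progenitor factors (0.22), heat shock genes (0.20), homing receptors (0.17) and AP-1 genes (0.13) lie to the right of zero, those of effector-like (−0.10) and cytotoxic (−0.11) genes to the left.

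A further group was chosen after its values were seen. Genes of the heat shock response encode chaperones and their helpers, which HSF1 induces when proteins misfold. Of 24 such genes 22 had a peak, and 12 of their 59 peaks (20.3%) were higher in Ttran, at 9 genes, while none was lower. Of all peaks, 1.87% were higher and 1.35% lower. The median was 0.20. At an unadjusted limma p under 0.05 there were 19 higher and 2 lower, and edgeR and DESeq2 called 12 and 13 higher and 0 lower. Of the 12 peaks, 6 were called in all 13 alternatives, and the settings tried gave between 7 (compared groups alone) and 14 (equal depth), with 8 without Tterm replicate 2. At Hspa1a, which encodes an inducible HSP70, the peak over the start and the gene, chr17:34968399-34972680, held 2017 and 1704 normalized reads in Ttran, 1297 and 1223 in Tterm and 1877 and 1782 in Tprog. The groups did not overlap, the Ttran and Tprog values overlapped, and the log2 fold change was 0.56 (SE 0.06, limma adjusted p = 7.94e-11). At its neighbour Hspa1b the values were 1497 and 1395 against 996 and 999.8 (0.53, SE 0.06). These genes are near-identical copies, so the placement of reads between them is uncertain. At Hsp90aa1, which encodes an HSP90, a peak at chr12:110688567-110691123 held 769 and 638 in Ttran and 419 and 405 in Tterm (0.76, SE 0.09, limma adjusted p = 5.6e-09). At Hsph1, an HSP110, a peak at chr5:149614434-149616867 held 558 and 473 against 320.3 and 269 (0.81, SE 0.11, limma adjusted p = 4.93e-07). A peak 411 bp from Hspa8 rose by 0.67 and a peak 6930 bp from the co-chaperone gene Bag3 by 0.49. Peaks of Dnajb1, Dnaja4 and Hsp90ab1 were called too, but not in every alternative. Of the 20 heat shock peaks over a transcription start only those of Hspa1a and Hspa1b were called, and 10 of the 39 others were. The start of Hsph1, for one, held 1722 and 1597 normalized reads in Ttran and 1553 and 1552 in Tterm (0.10, limma adjusted p = 0.538).

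The same 12 peaks were above zero in each of the 3 other comparisons of Ttran with Tterm, which share no library with this one. In young OTC hosts 10 of the 12 were called higher, with log2 fold changes of 0.33 to 0.84. In aged hosts 8 were called higher among Zfp219-targeted cells (0.18 to 1.13) and 8 among Dusp5-targeted cells (0.15 to 0.97). Of all 1006 peaks higher in aged OTC Ttran, 90.8% were above zero in young OTC, 78.8% in Zfp219 and 70.4% in Dusp5 cells. The shares called higher there were 44.4%, 7.95% and 14.3%. For none of the 12 did the difference between comparisons pass limma's adjusted p under 0.05 in any of the 3 interaction tests. Of all peaks only 0.0743% (age), 0.0873% (Zfp219) and 0.536% (Dusp5) passed. The lack of a pass among 12 peaks therefore does not show that the rises were equal.

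**Figure D5:**
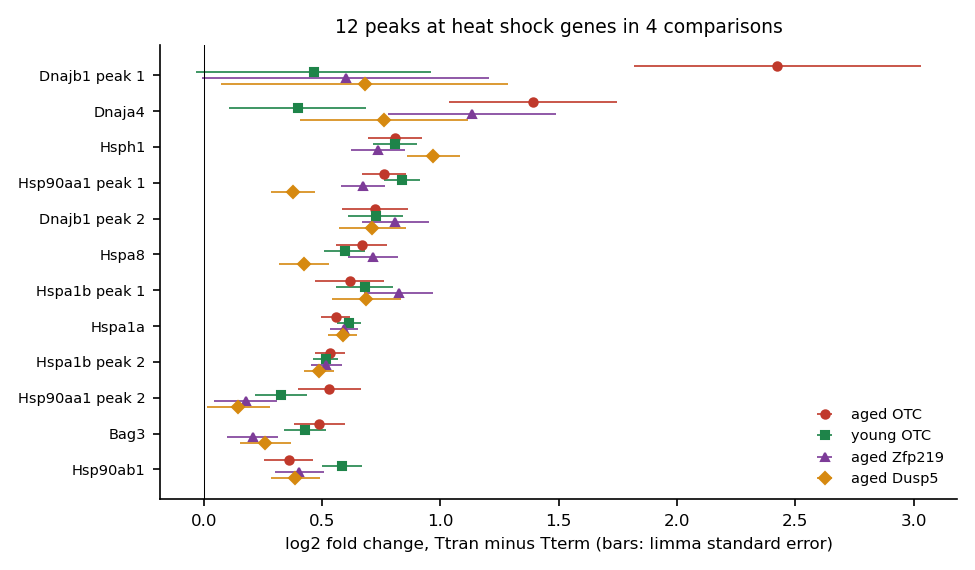
Points are log2 fold changes of Ttran minus Tterm at the 12 heat shock peaks called in aged OTC cells, and bars are limma standard errors. The groups are aged OTC (circles), young OTC (squares), aged Zfp219 (triangles) and aged Dusp5 (diamonds). All 48 values lie above zero, and at Hspa1a they run from 0.56 to 0.61.

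The 250 bases before the annotated start are shown for 3 genes whose start lay in a called peak and whose upstream window lies outside the gene body: Hspa1a as the clearest rise, Cx3cr1 and Csf1 as falls. They come from RefSeq GRCm38.p6, run 5′ to 3′ on the gene's strand, which is minus for all 3, and lie at chr17:34972157-34972406, chr9:120068297-120068546 and chr3:107760470-107760719. Capitals mark matches on either strand to TGANTCA (AP-1), CTTTGA (TCF), ACCACA (RUNX), GGTGTGA (T-box), AAAGGTCA (NR4A), GGAAGT (ETS), GGGTGTGG (KLF) or GAANNTTC (the core of a heat shock element, added after the values were seen), or to an IRF motif.
Hspa1a upstream: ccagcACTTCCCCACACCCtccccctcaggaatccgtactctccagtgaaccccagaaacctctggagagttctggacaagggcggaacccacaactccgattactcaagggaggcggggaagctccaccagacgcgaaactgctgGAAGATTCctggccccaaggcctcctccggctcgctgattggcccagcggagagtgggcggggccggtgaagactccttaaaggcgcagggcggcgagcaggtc
Cx3cr1 upstream: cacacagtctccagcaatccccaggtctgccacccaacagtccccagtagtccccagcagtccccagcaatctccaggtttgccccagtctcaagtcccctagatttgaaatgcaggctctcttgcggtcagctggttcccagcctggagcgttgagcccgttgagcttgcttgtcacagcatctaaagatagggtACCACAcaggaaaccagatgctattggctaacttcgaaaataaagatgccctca
Csf1 upstream: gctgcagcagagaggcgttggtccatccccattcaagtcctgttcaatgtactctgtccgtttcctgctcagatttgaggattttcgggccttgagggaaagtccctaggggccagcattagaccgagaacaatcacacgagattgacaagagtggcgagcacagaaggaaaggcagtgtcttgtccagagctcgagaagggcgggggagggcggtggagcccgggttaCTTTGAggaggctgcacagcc
In Hspa1a the first capital run is an ETS match, 245 bases before the start, followed directly by a KLF match at 239 bases, and the second is a heat shock element match 104 bases before the start. The Hspa1b window differs from it at 3 of 250 bases and holds the same 3 matches. Cx3cr1 has a RUNX match 54 bases before its start and Csf1 a TCF match 21 bases before its start. Windows at starts of Tox2, Tcf7 and Zeb2, also in called peaks, were searched but are not shown. The Tox2 windows held no match and the Zeb2 window held 3. At Tcf7 the window at chr11:52282596-52282845 held 4 matches and that at chr11:52283015-52283264 held none. Over all 32851 promoter windows the heat shock element letters occur in 6.69%, RUNX in 14.05%, TCF in 13.8%, ETS in 19.7%, KLF in 3.20% and AP-1 in 6.75%. Among windows whose start lies in a higher peak, 18 of 137 held the heat shock element letters (13.1%), against 12 of 333 in lower peaks (3.60%) and 4.59% of all windows in peaks. KLF letters were in 10 of 137 (7.30%) and 10 of 333 (3.003%), and AP-1 letters in 11 of 137 (8.03%) and 13 of 333 (3.90%). These are counts of letters in short windows, genes can have several windows, and no test was made.

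Among called peaks with a mean of at least 20 normalized reads and a gene, the largest fold changes were at weak peaks. The highest was inside Abcg2, a drug efflux transporter, at chr6:58603636-58604149. It held 27.1 and 57.4 in Ttran and 0 and 3.67 in Tterm, with 45.3 and 34.6 in Tprog, for a log2 difference of 4.23 (SE 0.57, limma adjusted p = 1.27e-07). Next came a peak 44481 bp from Tnfsf8, which encodes the CD30 ligand, with 48.1 and 31.9 against 1.09 and 5.50 (3.45), and peaks at Zfp993 (3.19), Asap1 (3.07), Esm1 (3.03), Vat1l (2.87), Shox2 (2.81) and Trpm1 (2.71). The largest falls were inside Parpbp (−3.36), Cyp4f18 (−2.67), Sh3rf1 (−2.32), Depdc5 (−2.30), Exoc7 (−2.21), Wnk1 (−2.19) and Rragd (−2.15) and near Lhx5 (−2.11). At Parpbp the Ttran libraries held 15.04 and 0 and the Tterm libraries 50.1 and 32.1. Asap1 was called in all 13 alternatives and the other 15 were not. In 13 of those 15 the call was lost when the weakest 25% of peaks were removed, because the peak itself was then not tested.

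At some loci several peaks were called in the same direction. Asap1, which encodes a GTPase-activating protein for Arf proteins, had 6 higher peaks of 30 and no lower one. Its gene-body peak at chr15:64210645-64213311 held 502 and 559.6 normalized reads in Ttran, 287 and 326 in Tterm and 984 and 908 in Tprog (0.79, SE 0.12, limma adjusted p = 3.85e-06). Fam53b had 5 of 15 peaks higher, Mbp 5 of 16, Sfi1 5 of 18 and Lrig1, a negative regulator of growth factor receptors, 4 of 11. Of the Mbp peaks, the one at chr18:82508607-82509848 held 1020 and 1095 in Ttran against 563 and 672 in Tterm (0.78). In the lower direction Gm40363 had 5 of 8 peaks, Adrb1, the beta-1 adrenergic receptor, all 3 of its 3, Ror2, a receptor for Wnt ligands, 3 of 7, Srgap3 3 of 12 and Clic4 3 of 13. Peaks of the Gm40363 locus lay next to each other between 47685039 and 47763836 on chromosome 6 and fell by 0.24 to 0.39, a small change. At the Adrb1 start, chr19:56721378-56724353, the values were 298 and 223 in Ttran, 393 and 443 in Tterm and 199 and 176 in Tprog (−0.69, limma adjusted p = 0.00573).

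Peaks on unplaced scaffolds behaved as a block. Of 110 such peaks 35 were higher in Ttran and none was lower, with a median over the 110 of 0.69, and 24 of the 35 were called in all 13 alternatives. These scaffolds held 1.48% and 1.46% of the reads in Ttran and 0.878% and 0.903% in Tterm, and the Tprog and Ttad libraries held 1.23% to 1.33%. In young OTC hosts 34 of the 35 peaks were also higher in Ttran. In aged Zfp219-targeted cells none of the 35 was called and their median was 0.04, and in aged Dusp5-targeted cells 20 were lower in Ttran, with a median of −0.65. The placement of reads on such sequence is uncertain, and the part that a library's share of scaffold reads has in these calls was not tested. Without the scaffolds 1686 peaks were called.

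Across hosts, young OTC cells gave 4515 called peaks (8.38%; 5.02% higher and 3.36% lower), from 3 libraries a group and 12629361 to 29942755 reads each, so the counts of the hosts cannot be compared as sizes of effect. Of the 1006 peaks higher in aged Ttran, 913 were above zero in young hosts and 447 were called higher there, which is 44.4% of the aged and 16.5% of the 2705 young calls. Of the 729 lower peaks, 604 were below zero in young hosts, 179 were called lower (24.6% of the aged and 9.89% of the young calls) and 2 were called higher. The difference between the hosts passed limma's adjusted p under 0.05 at 40 peaks (0.0743%). Entpd1 and Ikzf2 fell by 0.81 and 0.999 in aged hosts and stood at −0.25 and 0.04 in young ones, but their differences had adjusted p of 0.252 and 0.0803 in limma. Nfatc1 (0.68 and −0.00) had 0.135. The Tcf7 gene-body peak rose by 0.92 and 0.93 in the hosts. At Rbpj, −0.79 in aged and 0.62 in young hosts, the difference passed (limma adjusted p = 0.0427).

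In aged hosts the comparison could also be set beside cells with other guides. Cells targeted at Zfp219, a zinc finger gene, gave 604 called peaks (1.12%; 0.399% higher and 0.722% lower), and cells targeted at Dusp5, a phosphatase of ERK kinases, gave 936 (1.74%; 1.14% higher and 0.596% lower). Of the 1006 higher peaks of the control, 80 were called higher with Zfp219 (7.95% of the control and 37.2% of the Zfp219 calls) and 144 with Dusp5 (14.3% and 23.4%). Of the 729 lower peaks, 26 were called lower with Zfp219 (3.57% and 6.68%) and 26 with Dusp5 (3.57% and 8.10%). With Dusp5, 51 peaks that were higher in the control were called lower. Of these 51, 20 lay on unplaced scaffolds, where the placement of reads is uncertain. The difference from the control passed at 47 peaks (0.0873%) for Zfp219 and at 289 (0.536%) for Dusp5. Slamf6 rose in each, by 1.056 with Zfp219 and 0.89 with Dusp5 at the gene-body peak, and Tcf7 rose by 1.38 and 1.04. Pdcd1 stood at −0.02 with Zfp219 and −0.09 with Dusp5 against 0.41 in the control, with adjusted p of 0.0791 and 0.00375 in limma for the differences.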

How the data were processed

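ATAC-seq had been made in 48 libraries, in 21 groups by perturbation, host and subset. The deposited table holds normalized signal made by the authors, as its column names and values show. Each library's values are whole multiples of one step, so 100% of values came out as whole reads, within 1e-06 reads. Coordinates are as the deposited table gives them. Bowtie2 2.2.9, Picard 2.8.0, SAMtools 1.3.1, MACS2 2.1.1, DESeq2 1.28.1 and the build mm10 are named in the submitters' processing notes, with no order or settings; how insertion sites were shifted is not given in the sources used here.

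The main test was limma 3.58.1 in R 4.3.3 (lmFit, eBayes with a trend) on log2(value + 1), with all 48 libraries and a mean per group. This scale understates the change of weak peaks. A peak was called at a Benjamini-Hochberg adjusted p under 0.05 over all 53868 peaks. Peaks were assigned to a protein-coding gene by overlap with its body, otherwise to the nearest within 100 kb (RefSeq GRCm38.p6), which gave a gene to 51109 peaks. Exon, intron and UTR positions were not used here.

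Other settings tried were 8 as pseudocount, a table without its weakest 25% of peaks, quantile normalization, median-of-ratios rescaling, the compared groups alone, array weights, a replicate block, each library left out, edgeR 4.0.16 and DESeq2 1.42.0 on recovered reads (edgeR called 1521 peaks), and, chosen after seeing the data, equal depth and no scaffolds. Named peaks are the 8 largest called changes in each direction with groups that do not overlap and a mean of at least 20, the strongest peak of each sorting marker, up to 4 called peaks per gene list by lowest p (the strongest peaks of 2 genes where fewer than 2 were called), and the 5 genes with most called peaks in each direction. Ties were broken by the share of a gene's peaks that were called. The members and lists were chosen with earlier results of these data known, and the heat shock list after its values were seen. On simulated data, 200 of 53868 peaks were changed 2-fold in this comparison, and 127 of them (63.5%) were recovered. Beside these 127 true calls there were 46 false calls. The share of false calls in the simulation was thus well above the level that the adjusted p threshold allows. The share of false calls among the real calls was not tested. No molecular identifiers are stated, so reads may repeat a molecule.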

Additional observations from a re-analysis of the deposited data

Results flagged for a closer look

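The results here are some of those where the change from Tterm to Ttran in aged OTC cells differed from that in another set of libraries. The difference was judged by a limma interaction test, with Benjamini-Hochberg adjustment. The difference passed at 40 peaks between aged and young OTC cells, at 47 between aged Zfp219 and aged OTC cells and at 289 between aged Dusp5 and aged OTC cells. The aged OTC libraries enter each of these tests. The Abcg2 peak at chr6:58603636-58604149, log2 fold change 4.23 in aged OTC cells, differed from young hosts by 4.30, and the Zfp219 and Dusp5 values minus the aged OTC value were −4.98 and −4.63. Its Tterm libraries held 0 and 3.67 normalized reads. A strong peak inside Thy1, chr9:44046603-44047436, was singled out after its values were seen. It held 2944 and 3051 in Ttran, 959 and 829 in Tterm, 135 and 122 in Tprog and 4884 and 4611 in Ttad. Its log2 fold change was 1.75, against 0.70 in young OTC, 4.59 in Zfp219 and 0.88 in Dusp5 cells. The differences had limma adjusted p of 0.00135, 2.8e-20 and 0.016, and a cause was not tested.

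With Dusp5 minus OTC taken as the difference, the Zfp993 peak (chr4:146718300-146719305) gave −4.10, the Cyp4f18 peak (chr8:71988382-71988914) 3.48 and the Nr4a3 peak (chr4:47957893-47958221) 3.62. These peaks are weak, and at Cyp4f18 the Ttran libraries held 34.6 and 0. The strong Pdcd1 peak (chr1:94034797-94036401) gave −0.50, from 0.41 in OTC and −0.09 in Dusp5 cells.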

How the results depend on the processing

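There were 2 libraries a group, and Ttran was shallower than Tterm; at equal depth 2099 peaks were called. Of 51 named peaks that were called, 8 were called in all 13 alternatives. Leaving out a library in turn gave 499 to 1273 called peaks, 264 to 689 of them changed at least 2-fold; for young OTC 2916 to 3339, aged Zfp219 151 to 199 and aged Dusp5 181 to 1754. For the differences it gave 11 to 152 (age), 22 to 114 (Zfp219) and 144 to 674 (Dusp5). In aged Dusp5 the highest count came without Tterm replicate 1 and the lowest without Tterm replicate 2. The cause of these moves was not tested.

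With the compared groups fitted alone the counts were 625 (204 at least 2-fold), 7331 for young OTC, 1689 for Zfp219, 291 for Dusp5 and 159 for the Dusp5 difference. Array weights gave 849 (347), 8176, 1994 and 566 for the 4 comparisons, and 81 and 150 for the Zfp219 and Dusp5 differences. DESeq2 gave 1257 for Zfp219, and 180, 238 and 434 for the age, Zfp219 and Dusp5 differences. Quantile normalization gave 21 for the age difference and edgeR 71 for the Zfp219 difference. With a replicate block 1693 peaks were called; the deviations of same-numbered Ttran and Tterm libraries correlated at −0.00, and 2 shared numbers do not pair the samples. The higher share of calls fell without Ttran replicate 1 (546 higher, 727 lower) and without Ttran replicate 2 (586 and 649).

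Signs turned at peaks that were not called. Quantile normalization gave −0.0161 at Havcr2, −0.0206 at Nkg7, −0.00898 at Runx3 and 0.0164 at Mitf. Rescaling gave −0.00374 at Havcr2 and −0.00373 at Il2ra, and equal depth −0.00403 at Kit. Without a library the values ran from −0.0781 to 0.079 at Havcr2, −0.00637 to 0.123 at Nkg7, −0.0125 to 0.159 at Srgn, −0.12 to 0.00781 at B2m, −0.112 to 0.113 at Il2ra, −0.242 to 0.223 at Pax5, −0.27 to 0.0774 at Klrb1c, −0.00115 to 0.0233 at Kit and −0.0846 to 0.0521 at Mitf.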

Other observations

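Sfi1, which encodes a centrosome protein, had 5 of 18 peaks higher in Ttran in aged OTC cells, with log2 fold changes of 0.49 to 1.52. In aged Dusp5 cells the same 5 peaks stood at −0.91 to −0.27, none of them called by limma. The difference between Dusp5 and OTC cells passed limma's adjusted p under 0.05 at 4 of the 5. In young OTC cells they stood at 0.43 to 0.65, and 3 were called higher. The 35 called scaffold peaks moved in the same directions, with medians of 0.81 in aged OTC, 0.73 in young OTC and −0.65 in aged Dusp5 cells. The Sfi1 locus was singled out after its values were seen. A cause, including the placement of reads, was not tested.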
